A study of Mus musculus with 35 samples.

Results

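Genes of the synaptic vesicle, the active zone, synaptic adhesion, the postsynaptic scaffold and glutamate receptors were followed in mouse retina through diabetes, microglia depletion and microglia return. The set is a fixed list of 47 gene names among the 25655 genes of each table, chosen with earlier results of these data known. It holds 20 vesicle and release genes, 9 active zone genes, 5 adhesion genes, 6 scaffold genes and 7 glutamate receptor genes. All 47 were found and had a test in each of the 8 comparisons.

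Retinas of wild-type mice gave 35 samples in 7 groups. The non-diabetic group (ND, 6 samples) and the group with 6 weeks of diabetes (D6, 5 samples) carry no further treatment in the labels. Diabetic retina at 8 weeks (D8, 5 samples) and at 10 weeks (D10, 5 samples) is labelled with PBS as well. The D8 depleted group (4 samples) had 8 weeks of diabetes with 2 weeks of depletion. The D10 repopulated group (5 samples) had 10 weeks of diabetes, with 2 weeks of depletion and then 2 weeks of recovery. The ND repopulated group (5 samples) had the same depletion and recovery without diabetes. The labels call the depleting agent DTx and the series text calls it PLX-5622, so only the word depletion is used for it here. No source used here gives strain, age, sex or how diabetes was induced. Nothing in the labels ties each sample to its own animal, so p-values may measure only technical spread between samples. D8 and D10 carry one run of library numbers and the other 5 groups another, so contrasts of D8 or D10 with those groups differ by PBS and by this divide as well. Against ND these cannot be told apart from diabetes, and against D8 depleted or D10 repopulated they cannot be told apart from depletion.

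Chemical synapses release transmitter from vesicles that dock at the active zone, where Bassoon, Piccolo, RIM and Munc13 proteins place the vesicles near voltage-gated calcium channels. The SNARE proteins synaptobrevin, syntaxin and SNAP-25 then fuse vesicle and plasma membrane once synaptotagmin senses calcium, and complexins hold the machinery ready. In the retina, photoreceptors and bipolar cells release glutamate at ribbon synapses, which use syntaxin 3, complexins 3 and 4 and the channel subunit of Cacna1f, while amacrine cells form conventional synapses.

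Some promoter windows carry the left arm of the RE1 element, the site read by the neuronal gene repressor REST. Genes with this arm whose stretches are shown here are Syn1, Ptprn2 and Unc13a. Nlgn1 has the arm as well, and its stretch is not shown. The windows are those of RefSeq for GRCm38.p6, from 250 bases before to 50 bases after each annotated start, and 34 of the 47 genes had at least 1 (49 windows in all). This arm was searched as TTCAGCACC on both strands and lay in the windows of Nlgn1, Ptprn2, Syn1 and Unc13a, which is 8.16% of the 49 windows against 0.371% of all 32851 windows. Syn1 (the 250 bases before the start, chrX:20920919-20921168, minus strand), Ptprn2 (chr12:116485723-116485751, plus strand) and Unc13a (chr8:71671717-71671745, minus strand) are shown 5′ to 3′ with the RE1 arm in capitals. The stretches of the latter pair hold it on the other strand, just after the start, and Syn1 also has the cyclic AMP response element TGACGTCA in capitals.
Syn1: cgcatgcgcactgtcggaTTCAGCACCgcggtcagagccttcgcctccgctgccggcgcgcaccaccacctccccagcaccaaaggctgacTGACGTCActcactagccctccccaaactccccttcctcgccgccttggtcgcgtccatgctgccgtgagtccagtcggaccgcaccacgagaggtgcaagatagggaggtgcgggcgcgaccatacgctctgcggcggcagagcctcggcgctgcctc
Ptprn2: ggcgctgtccGGTGCTGAAgctcggccgg
Unc13a: ccgcgcccccGGTGCTGAAgcgacatggc
In Syn1 the RE1 arm begins 232 bases before the start and the cyclic AMP element 159 bases before it. The RE1 arm begins at base 14 of the Ptprn2 transcript and at base 23 of the Unc13a transcript. TGACGTCA lay in 2.04% of the 49 windows and in 1.79% of all windows. The RE1 arm was found in no other window of the set, which says only that those letters are not in these stretches.

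Each value is a log2 fold change from the authors' deposited tables, with the adjusted p they give and the larger of the 2 group means, whose unit is unknown. The tables hold no value per sample, so depth and spread within groups are unknown. An implied standard error (SE) was taken from each fold change and its p, and a gene is said to rise or fall where the deposited adjusted p is under 0.05. The labelled tissue was borne out by rod genes such as Gnat1, with a larger group mean of up to 3630 in the authors' deposited table. Microglia markers were lower in 12 of 12 cases in D8 depleted against D8 (median log2 -3.41) and in 4 of 12 in D10 repopulated against D10 (median -0.98), with no rise in either. Lens genes were far higher in ND than in D8 (10 of 12 lower in D8, median -5.34) and lower again in D8 depleted than in D8 (9 of 11, median -3.01). Haemoglobin and other blood genes were lower in D8 than in ND (4 of 6). The level of each marker list in each group was not derived, since only the larger mean is used here.

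**Figure D1:**
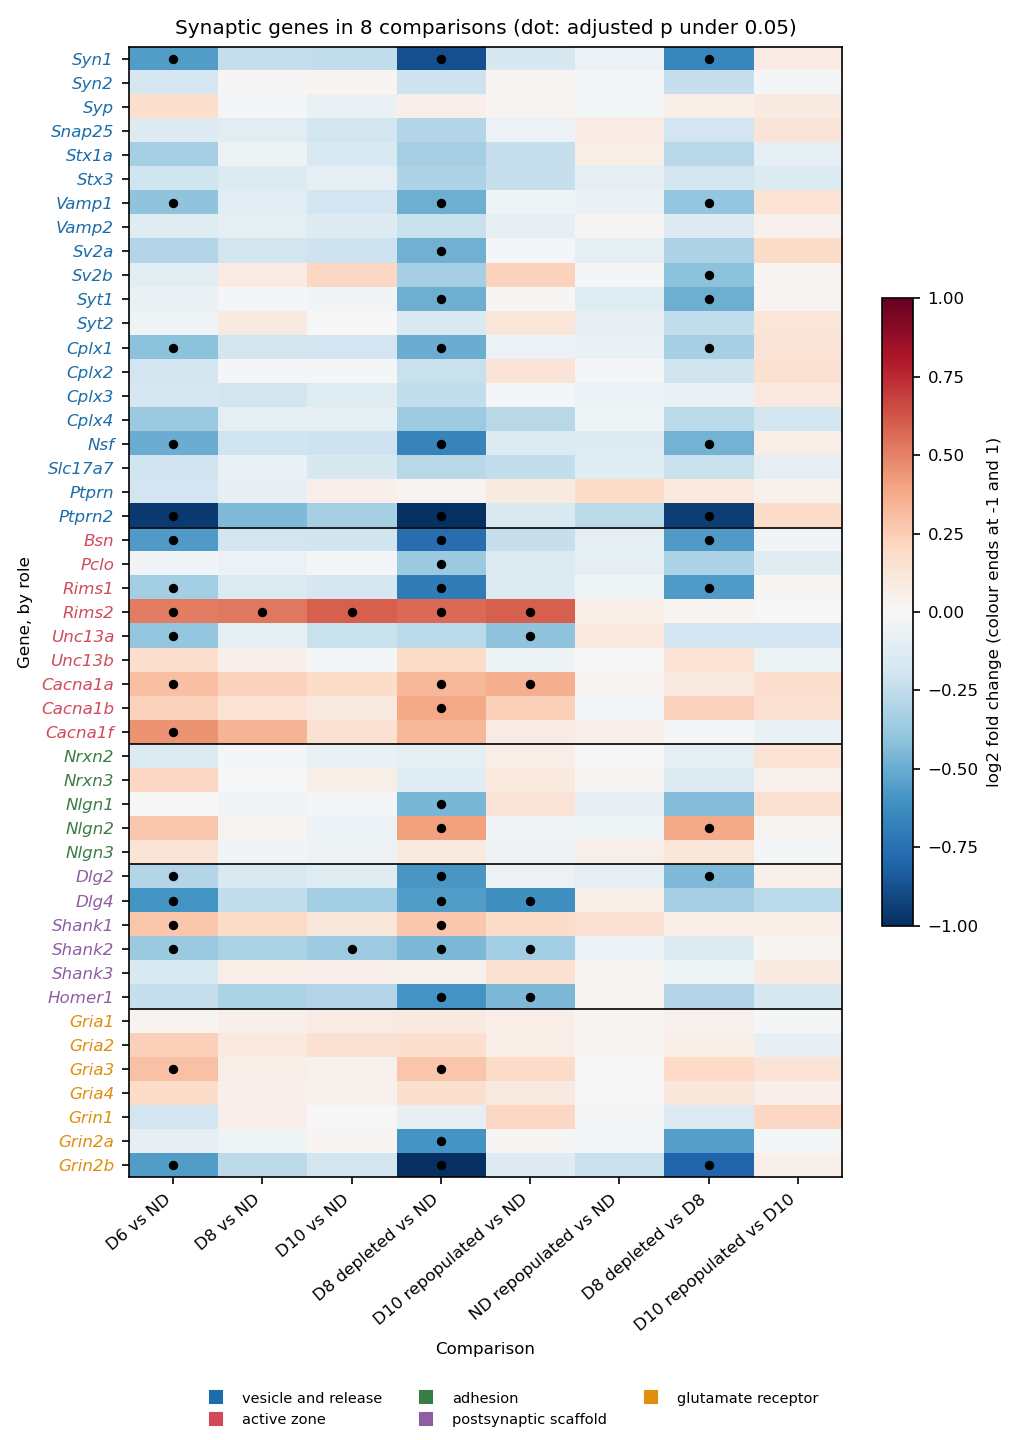
Log2 fold change of the 47 genes (rows, coloured by role) in the 8 comparisons (columns), blue for lower and red for higher in the group named first, with a dot where the deposited adjusted p is under 0.05. Dots gather in D6 and in D8 depleted, Rims2 is red in the first 5 columns, and the columns of ND repopulated against ND and D10 repopulated against D10 hold no dot.

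The retina before depletion was read from D6 against ND. In D6, 12 of the 47 genes fell (25.5%) against 9.31% of the 17876 genes tested, and 5 rose (10.6%) against 14.1%. The median log2 was -0.15 over the 47 genes and 0.04 over all genes tested. The falls covered vesicle, active zone and scaffold genes and 1 receptor gene, and 3 of the 5 rises were in active zone genes.

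Of the 20 vesicle genes, 5 fell and none rose in D6. Ptprn2, which encodes a transmembrane protein of dense-core vesicles, had the lowest value of the set at log2 -0.96 (SE 0.14, adjusted p = 4.25e-09 in the authors' deposited table), and fell by 48.6%. Syn1, whose product synapsin I tethers vesicles to the cytoskeleton, changed by -0.56 (SE 0.12, adjusted p = 7.17e-05 in the authors' deposited table). Nsf, the ATPase that takes spent SNARE complexes apart, fell by 0.50, Cplx1 by 0.41 and the synaptobrevin gene Vamp1 by 0.40 in the authors' deposited table. Genes of the most general vesicle and release proteins did not pass: Syp had 0.17 (SE 0.15), Snap25 -0.13 (SE 0.16), Vamp2 -0.12 (SE 0.16) and Syt1 -0.07 (SE 0.17) in the authors' deposited table.

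The active zone genes split in D6, with 3 of 9 lower and 3 higher. The scaffold gene Bsn fell by 0.57 (SE 0.13), Unc13a, a vesicle priming gene, by 0.39 (SE 0.14) and Rims1 by 0.34 (SE 0.10) in the authors' deposited table. Rims2, its close relative that is the main RIM gene of photoreceptor synapses, rose by 0.51 (SE 0.13, adjusted p = 0.000883 in the authors' deposited table). The calcium channel genes Cacna1f and Cacna1a rose by 0.45 (SE 0.16) and 0.30 (SE 0.09) in the authors' deposited table. Rims1 and Rims2 thus moved in opposite directions in one comparison.

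On the receiving side, 3 of 6 scaffold genes fell in D6. Dlg4, which encodes PSD-95, fell by 0.60 (SE 0.19), Shank2 by 0.37 (SE 0.11) and Dlg2 by 0.29 (SE 0.11, adjusted p = 0.0492) in the authors' deposited table. Shank1 rose by 0.28 (SE 0.09, adjusted p = 0.0164 in the authors' deposited table). Among receptors, the NMDA receptor gene Grin2b fell by 0.56 (SE 0.15) and the AMPA receptor gene Gria3 rose by 0.29 (SE 0.10) in the authors' deposited table. None of the 5 adhesion genes passed, and their values lay between -0.14 (Nrxn2) and 0.27 (Nlgn2) in the authors' deposited table.

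Neuronal markers moved in D6 as well. Ganglion cell markers were lower in 5 of 12 cases (median -0.32), amacrine and horizontal cell markers in 1 of 14 (1 higher), bipolar markers in 3 of 12 (2 higher) and rod markers in 2 of 12 (1 higher). Lens genes had a median of 1.36 there, with 1 of 12 called. Their part in the result was not tested. In whole retina, fewer cells of a type and less RNA per cell cannot be told apart. With the trend on gene span and level removed, 14 genes fell and 9 rose in D6. Under it 10 of the 20 vesicle genes fell rather than 5, with Stx1a, Sv2a, Cplx2, Cplx4 and Slc17a7 added, while the falls of Rims1, Dlg2 and Shank2 were lost. The added rises were in Cacna1b, Nrxn3, Gria2 and Gria4.

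**Figure D2:**
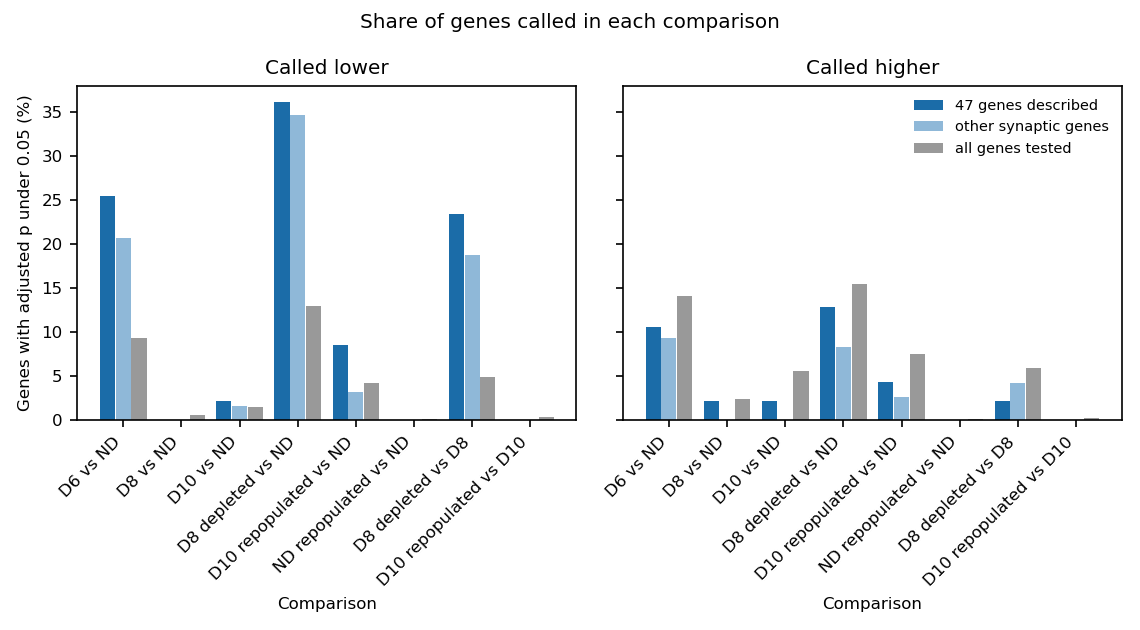
Percentage of genes with a deposited adjusted p under 0.05 in each comparison, lower on the left and higher on the right, for the 47 genes, 193 other synaptic genes and all genes tested (bars from 0). The share of the 47 genes that is lower reaches 25.5% in D6, 36.2% in D8 depleted against ND and 23.4% in D8 depleted against D8, each above the grey bar beside it, while the blue bars for higher lie below the grey ones.

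At 8 and 10 weeks of diabetes the same list showed few calls against ND. In D8, Rims2 alone rose and 0 genes fell by the authors' deposited test, against 2.33% and 0.583% of all genes tested. An unadjusted p under 0.05 was reached by 8 of the 47 genes (4 lower and 4 higher) and by 11.3% of all genes tested. In D10, Rims2 rose and Shank2 fell, against 5.59% and 1.41% of all genes tested. There 6 of the 47 genes had an unadjusted p under 0.05, beside 16.1% of all genes tested. The call of Shank2 in D10 was lost with the trend on gene span and level removed (adjusted p = 0.0616 from the authors' deposited p-values). The 95% interval of the log2 fold change lay within 0.5 of 0 for 40 of the 47 genes in D8 and for 39 in D10. Ptprn2 had -0.44 in D8 (SE 0.14, adjusted p = 0.0692) and -0.33 in D10 (SE 0.14, adjusted p = 0.174) in the authors' deposited tables, and Syn1 had -0.24 and -0.25.

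Rims2 was higher than ND in each of the 5 diabetic groups. Its group mean, as far as the authors' deposited tables give it, was at most 17.2 in ND, 17.2 in ND repopulated, 23.0 in D6, 24.2 in D8, 25.2 in D10, 25.2 in D8 depleted and 25.1 in D10 repopulated. The 5 diabetic means thus lay together above both non-diabetic means, and the spread within groups cannot be read from the tables. The log2 fold changes against ND were 0.51, 0.53 and 0.60 in D6, D8 and D10 and 0.57 and 0.60 in D8 depleted and D10 repopulated (SE 0.13 in each of them), with adjusted p from 8.4e-05 to 0.00226 in the authors' deposited tables. These 5 comparisons share the ND samples. Of 12 rod markers 1, the arrestin gene Sag, also rose in each of them, by 0.58, 0.58, 0.47, 0.51 and 0.51 in the same order in the authors' deposited tables, and its part in the result was not tested. Set against ND repopulated, a second non-diabetic group, the differences of the deposited values were 0.44, 0.46 and 0.53 in D6, D8 and D10, 0.50 in D8 depleted and 0.53 in D10 repopulated. Rims2 had 0.03 in D8 depleted against D8 (SE 0.12) and -0.00 in D10 repopulated against D10 (SE 0.13) in the authors' deposited tables, where neither passed.

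Besides Rims2, 5 genes passed against ND in D10 or D10 repopulated, and their values are given in all diabetic groups against the shared ND samples. Cacna1a, the pore subunit of P/Q-type calcium channels, had log2 values of 0.30, 0.23, 0.18, 0.33 and 0.36 in D6, D8, D10, D8 depleted and D10 repopulated in the authors' deposited tables, and passed in D6, D8 depleted and D10 repopulated. Shank2 had -0.37, -0.32, -0.36, -0.45 and -0.34 in the same order in the authors' deposited tables and missed only in D8 (adjusted p = 0.082). Dlg4 had -0.60, -0.25, -0.34, -0.56 and -0.61, and Homer1, whose product links Shank to metabotropic receptors, had -0.23, -0.32, -0.29, -0.60 and -0.45 in the authors' deposited tables. Unc13a had -0.39, -0.10, -0.22, -0.27 and -0.40 in the authors' deposited tables. Dlg4 missed in D8 and D10, Homer1 in D6, D8 and D10, and Unc13a in D8, D10 and D8 depleted. In ND repopulated these genes had 0.03 (Cacna1a), -0.06 (Shank2), 0.06 (Dlg4), 0.02 (Homer1) and 0.10 (Unc13a) in the authors' deposited table. Genes outside this choice, such as Syn1, Ptprn2 and Shank1, also had values of one sign in the 5 diabetic groups, with -0.06, -0.27 and 0.15 in ND repopulated in the authors' deposited table.

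**Figure D3:**
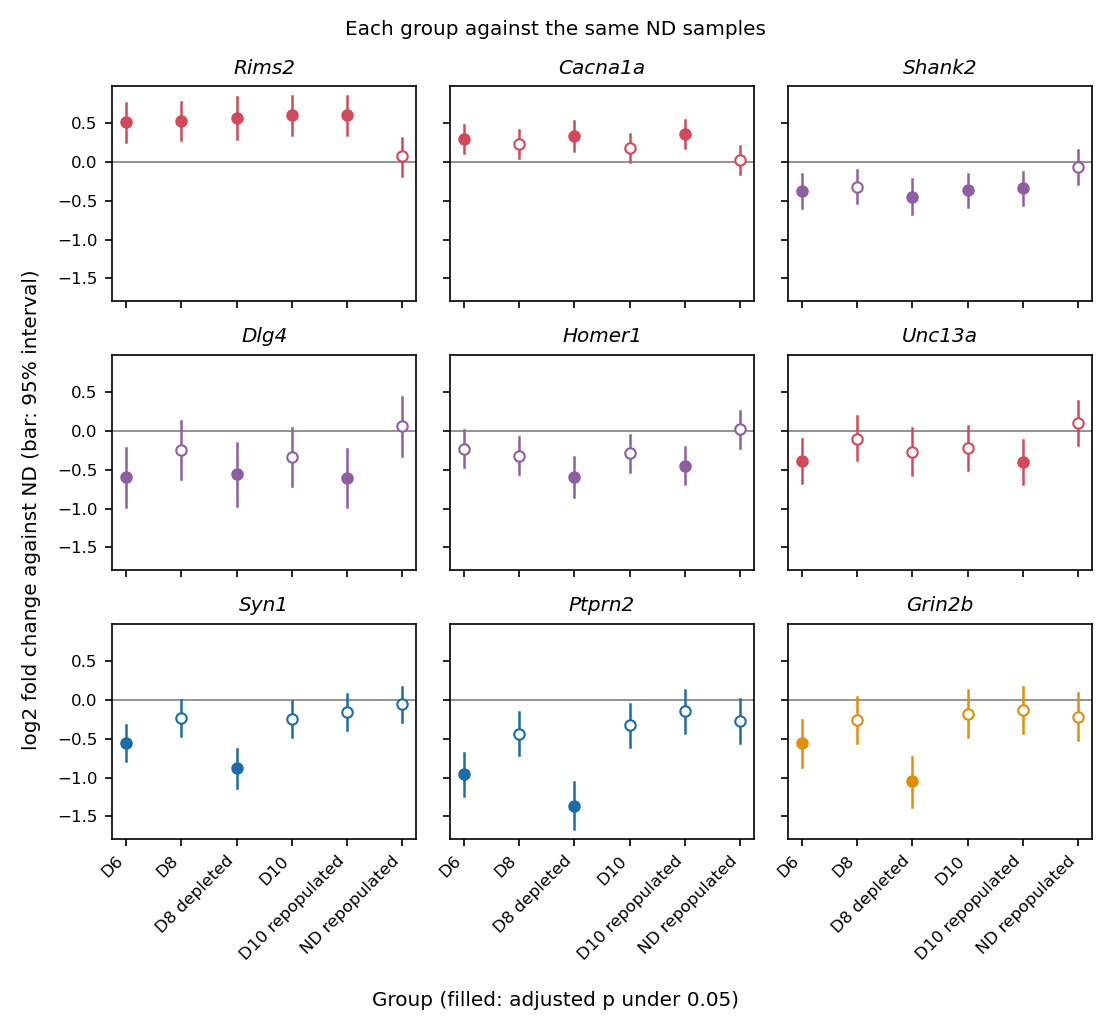
Log2 fold change against the same ND samples (points, filled where the adjusted p is under 0.05) with the 95% interval implied by the deposited p (bars) for 9 genes in 6 groups. Rims2 is filled in all 5 diabetic groups. Syn1, Ptprn2 and Grin2b have their lowest points in D8 depleted (-0.88, -1.36 and -1.05). They are filled there and in D6, and open in D8, D10 and D10 repopulated.

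Microglia depletion in diabetic retina was read from D8 depleted against D8. Depleted retina had lower expression of 11 of the 47 genes (23.4%), against 4.90% of the 16982 genes tested, and higher expression of 1 (2.13%), against 5.85%. The median log2 was -0.19 over the set and 0.00 over all genes tested, and 34 of the 47 values were below 0. At an unadjusted p under 0.05 there were 17 lower genes and 1 higher gene, with 25.2% of all genes tested past that level in either direction. Both the agent and the PBS treatment, as well as the library numbers, differ between these groups. All of these falls except those of Syt1 and Sv2b were also called in D6 against ND. The share of all genes called in both comparisons was not derived, so nothing is concluded from this overlap.

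Vesicle genes made up 7 of the 11 falls, with none of the 20 higher and a median log2 of -0.26. Ptprn2 fell by 47.8%, a log2 of -0.94 (SE 0.16, adjusted p = 8.95e-07 in the authors' deposited table), from a D8 mean of 10.7. Syn1 fell by 36.3%, a log2 of -0.65 (SE 0.13, adjusted p = 8.24e-05 in the authors' deposited table), from a D8 mean of 22.8. Syt1, the fast calcium sensor of release, fell by 0.49 (SE 0.13, adjusted p = 0.00686) and Nsf by 0.47 (SE 0.14, adjusted p = 0.0116) in the authors' deposited table. Vamp1 fell by 0.39 and Cplx1 by 0.33, and Sv2b, a vesicle glycoprotein gene, by 0.41 with an adjusted p of 0.0484 in the authors' deposited table. Syn1, Syt1, Cplx1 and Nsf were the only called genes of tethering, calcium sensing, complexins and SNARE recycling among the 20. With the trend on gene span and level removed, Syt1 and Nsf missed (adjusted p = 0.272 and 0.0618 from the authors' deposited p-values).

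Several vesicle genes of like role did not pass. Syn2 had -0.23 (SE 0.13) beside Syn1, Syt2 had -0.25 (SE 0.15) beside Syt1, and Vamp2 had -0.13 (SE 0.12) beside Vamp1 in the authors' deposited table. Syp, which encodes synaptophysin, had 0.07 (SE 0.11) and the Ptprn2 relative Ptprn had 0.10 (SE 0.14) in the authors' deposited table. These pairs were not tested against each other, and related genes can share reads where the counting does not separate them.

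Genes typical of ribbon synapses were set beside genes typical of conventional synapses. None of the 5 ribbon genes passed in D8 depleted against D8, with Cplx4 at -0.27 (SE 0.13), Slc17a7, the vesicular glutamate transporter gene, at -0.22 (SE 0.12), Stx3 at -0.18 (SE 0.12), Cplx3 at -0.07 (SE 0.12) and Cacna1f at -0.02 (SE 0.13) in the authors' deposited table. By the authors' deposited test 0 of these 5 genes were called, and 1 (Cplx4) had an unadjusted p under 0.05. Of the 6 conventional genes, Syn1 and Cplx1 fell, while Syn2, Stx1a, Cplx2 and Cacna1b did not pass. The medians were -0.18 and -0.25, and the difference between these short lists was not tested.

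Within the active zone 2 of 9 genes fell with depletion. Bsn and Rims1 both had a log2 of -0.57 (SE 0.13 each) with adjusted p of 0.0012 and 0.000662 in the authors' deposited table. Pclo, the relative of Bsn, had -0.32 (SE 0.12, adjusted p = 0.0695 in the authors' deposited table). Rims2 (0.03), Unc13b (0.14), Cacna1a (0.09) and Cacna1b (0.23) had values above 0 and did not pass in the authors' deposited table. Unc13a had -0.19 (SE 0.14) there.

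Adhesion genes showed the single rise of the set. Nlgn2, which encodes the neuroligin of inhibitory synapses, rose by 29.9%, a log2 of 0.38 (SE 0.13, adjusted p = 0.0363 in the authors' deposited table). Its group mean was 44.7 in D8 depleted and 33.8 in D8 in the authors' deposited tables. Nlgn1, the neuroligin of excitatory synapses, had -0.43 (SE 0.20, adjusted p = 0.139 in the authors' deposited table) at a mean under 1. Nlgn3 had 0.12, Nrxn2 -0.10 and Nrxn3 -0.13 in the authors' deposited table.

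Postsynaptic genes gave 2 falls. Dlg2, which encodes PSD-93, had -0.44 (SE 0.12, adjusted p = 0.00684), and Dlg4 had -0.33 (SE 0.13, adjusted p = 0.0691) in the authors' deposited table. Grin2b fell by 42.5%, a log2 of -0.80 (SE 0.22, adjusted p = 0.00743), and Grin2a had -0.55 (SE 0.20, adjusted p = 0.0525) in the authors' deposited table. Both NMDA genes lay low, with larger means of 0.576 and 0.678 in the authors' deposited table. The AMPA receptor genes Gria1 to Gria4 had 0.04, 0.06, 0.20 and 0.11, and the shared NMDA subunit gene Grin1 had -0.14, in the authors' deposited table. None of these 5 passed.

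**Figure D4:**
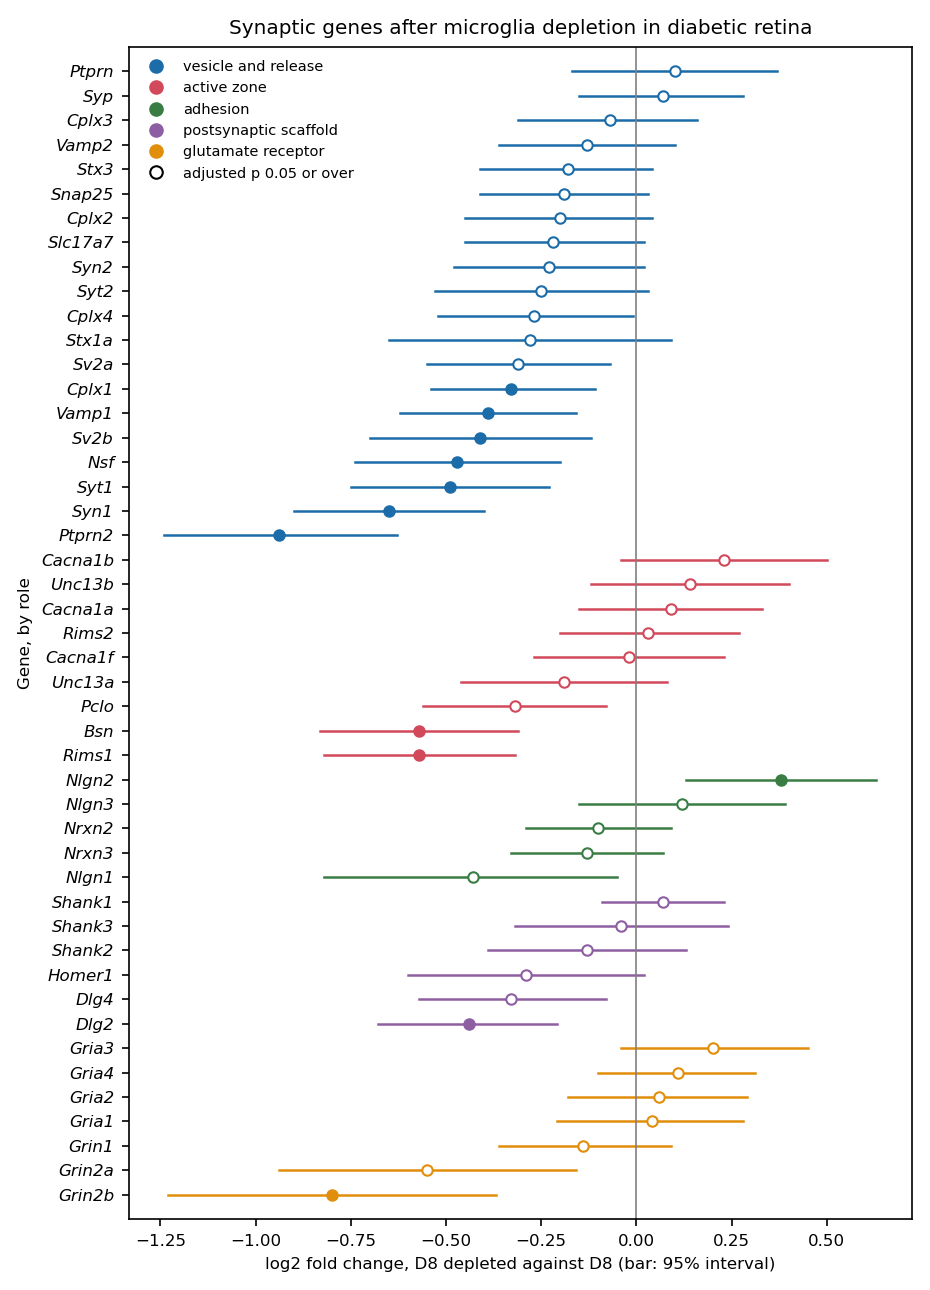
Log2 fold change of the 47 genes in D8 depleted against D8 (points, filled where the deposited adjusted p is under 0.05) with the implied 95% interval (bars), sorted within each role. The lowest points are Ptprn2 (-0.94), Grin2b (-0.80) and Syn1 (-0.65), and Nlgn2 (0.38) is the only filled point above 0.

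Marker lists moved in the same comparison. Amacrine and horizontal cell markers were lower in 4 of 14 cases (median -0.29), ganglion cell markers in 3 of 12 (median -0.30), cone markers in 3 of 10 (median -0.26) and bipolar markers in 2 of 12 (1 higher). Rod markers had 1 lower and 1 higher of 12. Lens genes were lower in 9 of 11 cases, and pigment epithelium genes were higher in 5 of 10 (median 1.05) and blood genes in 4 of 5 (median 2.13). Their part in the result was not tested. Across the 47 genes the log2 fold change had a Pearson r of -0.29 and a Spearman rho of -0.25 with the logarithm of gene span, beside -0.15 and -0.23 over 15294 genes, which are values of genes in the same libraries and no replicates. With the trend on gene span and level removed, 6 genes were lower and 3 higher, and 5 of the 12 calls held. Syn1, Vamp1, Cplx1, Ptprn2 and Bsn kept their calls, Dlg2, whose span is 1970 kb, moved to 0.05, and Nrxn3, whose span is 1610 kb, moved to 0.32 (adjusted p = 0.0245 from the authors' deposited p-values). Gria3 and Gria4 were the other rises, and Sv2a was added to the falls. Syt1, Nsf, Sv2b, Rims1, Nlgn2 and Grin2b no longer passed. Removal of a trend on GC content and transcript length ended the calls of Sv2b, Dlg2 and Nlgn2.

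D8 depleted was also compared with ND, and this comparison shares samples with those above. There 17 of the 47 genes fell (36.2%) against 13.0% of the 18102 genes tested, and 6 rose (12.8%) against 15.5%. The median log2 was -0.27 over the set and 0.02 over all genes tested. Ptprn2 had -1.36 (SE 0.15, adjusted p = 4.8e-16) and fell by 61.2%, Grin2b -1.05 (SE 0.17), Syn1 -0.88 (SE 0.13), Bsn -0.76 (SE 0.14), Rims1 -0.70 (SE 0.10) and Nsf -0.67 (SE 0.16) in the authors' deposited table. Grin2a fell by 0.59, Nlgn1 by 0.46, Sv2a by 0.48 and Pclo by 0.37 in the authors' deposited table. The 6 rises were in Rims2 (0.57), Nlgn2 (0.41), Cacna1b (0.38), Cacna1a (0.33), Gria3 (0.28) and Shank1 (0.27) in the authors' deposited table. Of 6 scaffold genes 4 fell and 1 rose, and of 20 vesicle genes 7 fell and none rose. With the trend on GC content and transcript length removed, 11 of the vesicle genes fell. Stx1a, Vamp2 and the ribbon genes Cplx3, Cplx4 and Slc17a7 were added, and Syt1 was lost. In the deposited comparison lens genes were lower in 12 of 12 cases (median -8.78) and amacrine and horizontal cell markers in 7 of 14 (median -0.31). Ganglion cell markers were lower in 6 of 12 (1 higher), and the part of these lists in the result was not tested. With the trend on gene span and level removed, 12 genes were lower and 11 higher, and 16 of the 23 calls held. Under it Syt1, Nsf, Pclo, Nlgn1, Dlg2, Shank2 and Grin2a no longer passed, and 2 of 6 scaffold genes fell. The added rises were in Unc13b, Nrxn3, Gria1, Gria2 and Gria4.

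After recovery from depletion, D10 repopulated was compared with D10. By the authors' deposited test 0 of the 47 genes were lower and 0 higher, against 0.267% and 0.178% of all genes tested. An unadjusted p under 0.05 was reached by 2 genes (Cacna1a and Grin1, both higher) and by 7.27% of all genes tested. The smallest adjusted p of the set was 0.602 (Cacna1a), and the median log2 was 0.04. The 95% interval lay within 0.5 of 0 for 45 of the 47 genes, with the lowest bound at -0.66 for Dlg4 and the highest at 0.49 for Sv2a. Ptprn2 had 0.18 (SE 0.15), Syn1 0.08 (SE 0.11), Bsn -0.03 (SE 0.14), Nsf 0.07 (SE 0.17) and Grin2b 0.05 (SE 0.16) in the authors' deposited table. This contrast crosses the divide of PBS and library numbers too, and blood genes were higher in it in 4 of 6 cases (median 3.80).

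Against ND, D10 repopulated had 4 lower genes (8.51%) beside 4.19% of all genes tested and 2 higher genes (4.26%) beside 7.49%. The lower genes were Dlg4 (-0.61, SE 0.19), Homer1 (-0.45, SE 0.12), Unc13a (-0.40, SE 0.14, adjusted p = 0.0468) and Shank2 (-0.34, SE 0.11) in the authors' deposited table. Rims2 (0.60) and Cacna1a (0.36) rose in the authors' deposited table. Unc13a missed with the trend on gene span and level removed (adjusted p = 0.0581 from the authors' deposited p-values). No vesicle gene passed in this comparison, and Syn1 (-0.16, SE 0.12), Ptprn2 (-0.15, SE 0.14) and Nsf (-0.14, SE 0.15) had intervals that included 0 in the authors' deposited table. With the trend on GC content and transcript length removed, Cplx4 passed at -0.49. Microglia markers were lower than in ND in 8 of 12 cases (median -1.61), cone markers in 2 of 10 and bipolar markers in 2 of 12 (1 higher). Of 10 Muller glia markers 1 was lower and 3 were higher, and 2 of 10 pigment epithelium genes were higher. Their part in the result was not tested.

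In non-diabetic retina, depletion with recovery was compared with ND. By the authors' deposited test 0 genes of the set were lower and 0 higher. An unadjusted p under 0.05 was reached by 0 genes of the set and by 2.48% of all genes tested. Few genes of any kind were called (0.0714% lower and 0.0844% higher of 15402). The values ran from -0.27 (Ptprn2, SE 0.14) to 0.18 (Ptprn, SE 0.12) in the authors' deposited table, and 45 of the 47 intervals lay within 0.5 of 0. A depleted non-diabetic group without recovery is not analysed here.

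Depletion at 8 weeks and repopulation at 10 weeks share no samples, so their difference was tested gene by gene. Syn1, Vamp1 and Ptprn2 had lower fold changes with depletion than with repopulation, which is 3 of the 47 genes against 0.654% of the 16672 genes tested in either direction. Ptprn2 differed by -1.11 (SE 0.22, adjusted p = 0.000464), from -0.94 with depletion and 0.18 with repopulation in the authors' deposited tables. Syn1 differed by -0.73 (SE 0.17, adjusted p = 0.00555), from -0.65 and 0.08, and Vamp1 by -0.53 (SE 0.14, adjusted p = 0.0348), from -0.39 and 0.14, in the authors' deposited tables. At an unadjusted p under 0.05 there were 15 genes, each lower with depletion, beside 11.6% of all genes tested. Among those 15, Rims1 differed by -0.59 (adjusted p = 0.0723), Cplx1 by -0.46 (adjusted p = 0.0752), Grin2b by -0.84 (adjusted p = 0.112) and Bsn by -0.54 (adjusted p = 0.168), computed from the authors' deposited tables.

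The other pairs of comparisons without shared samples gave no call in the set. In both pairs only the diabetic comparison crosses the divide of PBS and library numbers. That divide cannot be told apart from diabetes in these differences. Depletion at 8 weeks differed from non-diabetic repopulation in 0 of the 47 genes by the normal test of the difference, against 1.27% of all genes tested. There 8 genes had an unadjusted p under 0.05, 7 of them lower with depletion, beside 12.2% of all genes tested. The lower genes were led by Syn1 at -0.59 (adjusted p = 0.0574), Rims1 at -0.53 (adjusted p = 0.0636) and Ptprn2 at -0.67 (adjusted p = 0.0854), computed from the authors' deposited tables. Repopulation in diabetic retina differed from that in non-diabetic retina in 0 genes of the set by the normal test, against 0.188% of all genes tested. Here 1 gene (Ptprn2, 0.45) had an unadjusted p under 0.05, beside 3.82% of all genes tested.

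**Figure D5:**
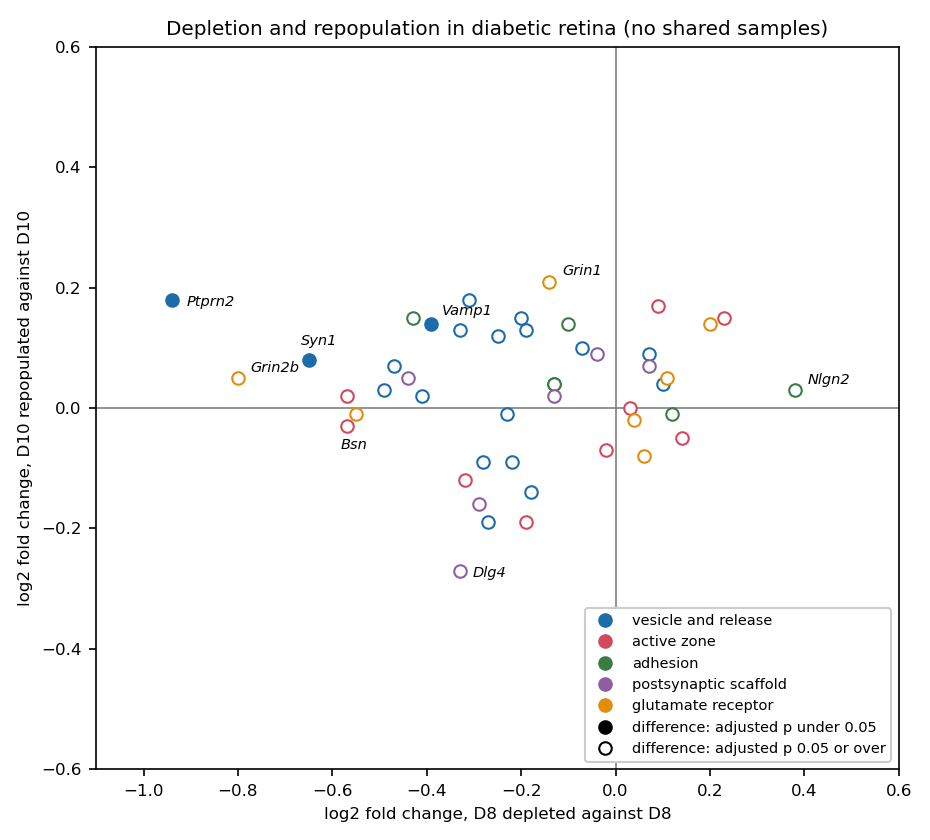
Log2 fold change of the 47 genes in D8 depleted against D8 (x axis) and in D10 repopulated against D10 (y axis), filled where the difference of both has an adjusted p under 0.05. Ptprn2, Syn1 and Vamp1 are filled at the left, between -0.94 and -0.39 on the x axis and between 0.08 and 0.18 on the y axis.

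Other genes of the synapse, 193 measured of 196 listed, were counted in the same comparisons. In D8 depleted against D8, 36 fell (18.7%) and 8 rose (4.15%), beside 4.9% and 5.85% of all genes tested. Their median log2 was -0.19. In D6 40 fell (20.7%) and 18 rose (9.33%), beside 9.31% and 14.1% of all genes tested. In D8 depleted against ND 67 fell (34.7%) and 16 rose (8.29%), beside 13.0% and 15.5%. In D10 repopulated against ND 6 fell (3.11%) and 5 rose (2.59%), beside 4.19% and 7.49%. D10 against ND had 3 lower (1.55%) and none higher, beside 1.41% and 5.59%. By the authors' deposited test 0 were called in D8 against ND, ND repopulated against ND and D10 repopulated against D10.

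Among these other genes in D8 depleted against D8, 12 of 44 vesicle genes fell and 1 rose, and 4 of 20 vesicle retrieval genes fell. Slc17a6, the second vesicular glutamate transporter gene and a ganglion cell marker, fell by 0.76, the Rab3 effector gene Rph3a by 0.63 and the dynamin gene Dnm3 by 0.63 in the authors' deposited table. Hspa8, the chaperone that uncoats clathrin vesicles, fell by 0.49 in the authors' deposited table. Of 28 active zone genes 5 fell and 3 rose, with Lin7a at -0.75, Erc1 at -0.58 and Ppfia4 at 0.53 in the authors' deposited table. Adhesion genes fell in 2 of 33 cases, Cadm3 at -0.72 and Ntng1 at -0.52 in the authors' deposited table.

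Postsynaptic genes outside the set moved both ways in that comparison. Of 28 further scaffold genes 4 fell and 3 rose, with Begain at 0.84, the AMPA receptor auxiliary gene Cnih2 at 0.76 and Cacng4, another such gene, at -0.45 in the authors' deposited table. Of 19 further glutamate receptor genes 2 fell and 1 rose: Grm8 had -1.01, Grm7 -0.67 and the kainate receptor gene Grik5 0.54 in the authors' deposited table. Receptors for GABA and glycine fell in 7 of 21 cases and none rose (median -0.42). The glycine receptor gene Glrb fell by 0.45, and Gabrb2, at a mean under 1, had -1.76 (SE 0.43) in the authors' deposited table.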

How the data were processed

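Stranded poly(A) mRNA libraries from mouse retina were sequenced as paired 100-base reads, per the labels' protocols. Base calls were converted with bcl2fastq and the genome was GRCm39, per the submitters' processing notes. No source used here gives the aligner, counter, scaling or statistical test. The authors deposited 8 tables, each comparing 2 groups. Per the file headers, each gene has a log2 fold change, a linear fold change, a p-value, an FDR p-value and the larger group mean, which was treated as a signal level whose unit is unknown. Samples' own values were not analysed here, so the depth of each is unknown and precision is known only through the implied SE (median 0.126 to 0.141 log2 over the 47 genes).

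The sign of the table for 10 weeks with repopulation was turned, so that every contrast reads treated against untreated. The deposited FDR p-values equalled Benjamini-Hochberg values within 0.000489. The implied SE divides each log2 fold change by the normal quantile that its p corresponds to, and intervals are at 95%. Differences between comparisons without shared samples used a two-sided normal test with variances added and Benjamini-Hochberg adjustment over all genes tested. A group mean was read from the larger mean where a table gave it (183 of 329 sought). Gene spans, transcript lengths and GC content came from a GRCm38 annotation or the tables' own coordinates. Steps were tested on simulated data. Python 3.11.15, numpy 2.4.6, pandas 2.3.3 and scipy 1.17.1 were used.

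The genes and lists were chosen with earlier results of these data known. All 47 genes are named, and from each other list up to 4 called genes per comparison with the smallest p above the 40th percentile of level, of which the text gives some. Alternatives were a threshold of 0.01 or 0.10, a minimum absolute log2 of 0.5, leaving out the lowest 40 percent of level, centring on the median, the indirect difference of tables against ND, and removal of a trend on gene span and level. Removal of a trend on GC content and transcript length was added after the data were seen.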

Additional observations from a re-analysis of the deposited data

Results flagged for a closer look

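The fold change of 3 genes differed between depletion at 8 weeks (D8 depleted against D8) and repopulation at 10 weeks (D10 repopulated against D10) by the normal test of the difference, adjusted over all genes tested. Ptprn2 differed by -1.11 on the log2 scale, Syn1 by -0.73 and Vamp1 by -0.53, each lower with depletion. At a threshold of 0.10 the number of such genes was 5.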

How the results depend on the processing

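No paired analysis was possible because values per sample were not used here, which also precluded leaving out replicates. At a threshold of 0.01, 2 genes rose in D6, 0 fell in D10, 3 rose in D8 depleted against ND, 1 fell in D10 repopulated against ND, and 7 fell and 0 rose in D8 depleted against D8. At 0.10, 2 fell in D8, and the differences of depletion at 8 weeks from diabetic and from non-diabetic repopulation held 5 and 3 genes. With an absolute log2 of at least 0.5, D6 kept 5 lower and 1 higher, D10 0 lower, D8 depleted against ND 10 lower and 1 higher, D10 repopulated against ND 1 lower and 1 higher, and D8 depleted against D8 5 lower and 0 higher. With the trend on gene span and level removed, 9 rose in D6, 2 in D8 and 11 in D8 depleted against ND, and D8 depleted against D8 had 6 lower and 3 higher. Under it 3 to 8 of the 47 values per comparison changed sign. Of genes called with or without this step, 3 values did so: Nrxn3 to 0.38 in D8 depleted against ND and 0.32 against D8, and Dlg2 to 0.05 against D8. With the trend on GC content and transcript length removed, D8 had 1 lower and 3 higher, D10 3 lower, D8 depleted against D8 0 higher, and the difference from non-diabetic repopulation 2 genes. The cause of these changes was not tested, beyond the stricter or looser threshold itself. Centring moved 2 single calls: Sv2b in D8 depleted against D8 was lost (adjusted p = 0.0518) and Stx1a in D6 was gained (adjusted p = 0.046), both from the authors' deposited p-values. The other 96 counts under these settings stayed within 1.5 times their value. Depth is unknown, and genes with means under 1, such as Grin2a, Grin2b and Nlgn1, had the widest intervals in D8 depleted against D8.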

Other observations

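Besides the RE1 arm and TGACGTCA, 2 further motifs were searched in the 49 promoter windows on both strands. The element read by NRF1 lay in the windows of Bsn, Dlg4, Gria2, Nsf, Pclo and Syp, which is 12.2% of the windows against 4.60% of all 32851. The letters TAATCC, read by the photoreceptor factor CRX, lay in those of Dlg4, Stx3, Sv2b and Syp, 10.2% against 7.06%. In D8 depleted against D8, Bsn and Nsf fell while Dlg4, Gria2, Pclo and Syp did not pass, and Sv2b fell while Stx3 did not. Genes with the RE1 arm likewise differed among themselves there: Syn1 and Ptprn2 fell, and Nlgn1 and Unc13a did not pass. A match of letters is a description of the window, and binding was not measured.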
